A study of Mus musculus with 6 samples.

Results

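The enzymes, membrane proteins and proton pump of the lysosome, cathepsins aside, were followed in microglia through 49 genes chosen by name and function, with earlier results of these data known, out of 49585 genes counted in the series. They comprise 12 glycosidases, 1 glycosylasparaginase, 4 sulfatases and sulfamidase, 3 lipid and thioester hydrolases, 2 proteases, 3 activators and chaperones, 8 membrane proteins, 14 subunits of the vacuolar ATPase (V-ATPase) and 2 of its accessory proteins. Microglia, the macrophages of the brain parenchyma, were taken from male mice of 3 months: 3 libraries labelled WT (wild type) and 3 labelled IRF8KO, named for a knockout of Irf8, which encodes a transcription factor of macrophages. Each brain gave its own library. Isolation used no enzymes, the cells were sorted by flow cytometry, and no treatment was given. The labels give no allele, strain or driver for the knockout, so whether IRF8 was absent from all cells or from some is not stated here. The comparison asks which of these transcripts differ between WT and IRF8KO microglia.

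Lysosomes break down what a cell engulfs or recycles. Their soluble hydrolases work at acid pH, each cutting its own kind of bond in glycans, sulfated sugars, lipids or proteins, and loss of most of them causes a storage disease. The acid is made by the V-ATPase, a rotary pump: its peripheral V1 part splits ATP in the cytosol and turns a ring of its V0 part, which carries protons across the membrane. Microglia, which clear debris and dying cells, are rich in lysosomes. Many lysosomal genes carry a short element with the core letters CACGTG near their start, which the transcription factors TFEB and TFE3 bind.

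Those core letters were searched in RefSeq promoters (assembly GRCm38.p6, 250 bases before to 50 bases after each start site). An entry was matched by symbol for 42 of the 49 members, giving 48 promoters of 300 bases. CACGTG, which reads the same on both strands, was found in 14 of the 48 member promoters (29.2%), in 7.15% of all 32851 promoters and in 10.2% of the 11002 promoters of genes tested here. Its longer form TCACGTGA, which contains the first motif, was found in 6 of 48 (12.5%), against 0.974% of all promoters and 1.95% of those of tested genes. Letters of the kind that interferon regulatory factors bind, searched on both strands as GAAANNGAA and GGAANNGAA, were found in 10.4% and 8.33% of member promoters in 8.56% and 8.24% of all promoters and in 7.27% and 7.39% of those of tested genes. The stretches below hold every TCACGTGA found in a member promoter, on the gene's strand, with the motif in capitals. They were chosen by these letters after the expression values were known.
Atp6v0e: agcgcgccgaTCACGTGAgcctctgttg
Atp6v0d1: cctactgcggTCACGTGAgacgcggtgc
Atp6v1a: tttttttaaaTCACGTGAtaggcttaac
Mcoln1: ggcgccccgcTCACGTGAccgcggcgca
Cln3: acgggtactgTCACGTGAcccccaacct
Gla, first site: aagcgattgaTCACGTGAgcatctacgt
Gla, the second site: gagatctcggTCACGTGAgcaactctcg
They lie at chr17:26676388-26676415 (plus), chr8:105566051-105566078 (minus), chr16:44139374-44139401 (minus), chr8:3500463-3500490 (plus), chr7:126583341-126583368 (minus), and chrX:134601216-134601243 and chrX:134601183-134601210 (both minus). Lamp1 was the member with the most CACGTG sites, 4 within the 71 bases before its start site and shown here in capitals.
Lamp1: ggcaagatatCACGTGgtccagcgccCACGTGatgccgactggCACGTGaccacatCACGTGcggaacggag
That stretch is chr8:13159090-13159161 on the plus strand and ends on the start base. Of these 7 genes only Atp6v0e passed the test between genotypes described below. A match of letters is a description of the sequence and was not tied to binding in these cells.

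Levels are given as CPM, counts scaled to a common library total, and between genes as CPM per kb of exonic length. On the per-kb scale the members spanned more than 3 orders of magnitude. In WT the 6 highest of those described were Lgmn (2647 CPM per kb), a cysteine protease also called legumain; Psap (2477), the precursor of the saposins; Laptm5 (2362), a membrane protein of blood-derived cells; Grn (2036), the lysosomal chaperone progranulin; Cd68 (1441), a heavily glycosylated membrane protein of macrophages; and Hexa (1093), the alpha chain of beta-hexosaminidase. The same 6 genes were the highest in IRF8KO, but the order of the group means differed: Laptm5 came first (2743) and Psap sixth (964.7). The order also varied among WT libraries. Psap came first in WT replicate 3 (3655), and Lgmn, Psap and Laptm5 lay close together in WT replicate 2 (2043, 2007 and 2002). At the low end stood Galc (0.787 in WT and 1.55 in IRF8KO), Gla (1.17 and 2.16) and the V1 subunit gene Atp6v1h (2.13 and 1.18). Ids, at 4.31 in WT, was the lowest measured member in IRF8KO, at 0.708. Atp6v0d2, which encodes an osteoclast form of the d subunit, had 0 counts in all 6 libraries, where a count of 0 allows up to 0.134 CPM of unscaled gene counts in WT and 0.0968 in IRF8KO. Its partner gene Atp6v0d1 had 65.4 CPM per kb in WT and 100.7 in IRF8KO.

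Taken as shares of all gene counts, the 49 members held 4.78%, 4.70% and 5.76% in WT, against 3.54%, 3.74% and 3.49% for IRF8KO. Every IRF8KO share lay below every WT share. The transcript of apolipoprotein E, Apoe, alone took 25.5% to 33.7% of the counts of IRF8KO libraries and 0.154% to 0.324% of WT libraries, and the shares of a library sum to a fixed total. On the CPM scale, which is scaled with TMM factors, the members summed to 34000, 36160 and 62910 CPM in WT and to 51090, 36550 and 42040 CPM in IRF8KO, and the groups overlapped.

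Depth was 3658917 to 11098363 gene counts per library. Irf8 itself was counted in all 6 libraries, with 794.6, 851.2 and 1403 CPM in WT and 742.8, 650 and 849.6 CPM in IRF8KO (log2 fold change −0.44, SE 0.33, adjusted p = 0.368 by edgeR's quasi-likelihood test), so the label was not borne out by this count and each direction rests on the libraries labelled IRF8KO. A count over a whole gene does not tell an intact transcript from one that lacks an exon. WT replicate 3 stood apart from WT replicates 1 and 2 (correlations of log2 CPM of 0.892 and 0.897, against 0.969 between that pair), and it was the highest WT library for 30 of the 48 tested members. Results are therefore given with it and without it.

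Most of the 49 genes did not pass the test between genotypes. Of the 48 tested, 3 rose in IRF8KO (the V-ATPase subunit genes Atp6v0e, Atp6v1e1 and Atp6v1f) and 4 fell (Arsb, Asah1, Psap and Atp6ap2), at an adjusted p under 0.05 in edgeR's quasi-likelihood test with Benjamini-Hochberg adjustment over all 11041 tested genes. The 7 called members are 14.6% of those tested, while 19.1% of all tested genes were called. In each direction the share was also below that of all genes, of which 9.64% rose and 9.46% fell. The change reached 2-fold in 6 of the 7 (12.5% of those tested), and 18.3% of all tested genes were called with a change of that size. The 3 values of each genotype did not overlap for 18 members (37.5%), near the 37.9% of all tested genes. The IRF8KO values lay above all WT values for 12 of them, where 20.0% of all genes did so, and below for 6, where 17.9% did. The median log2 fold change of the members was 0.21, with 30 positive and 18 negative, and that of all tested genes was −0.11. That sign depended on the scaling: with library size alone, which shifts the median of all genes to −0.61, the members' median was −0.27, with 16 positive and 32 negative, and 2 were called higher and 9 lower. Of all calls, 25.4% were then higher, against 50.5% with TMM. In bulk samples, fewer cells of a type and less RNA per cell cannot be told apart.

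**Figure D1:**
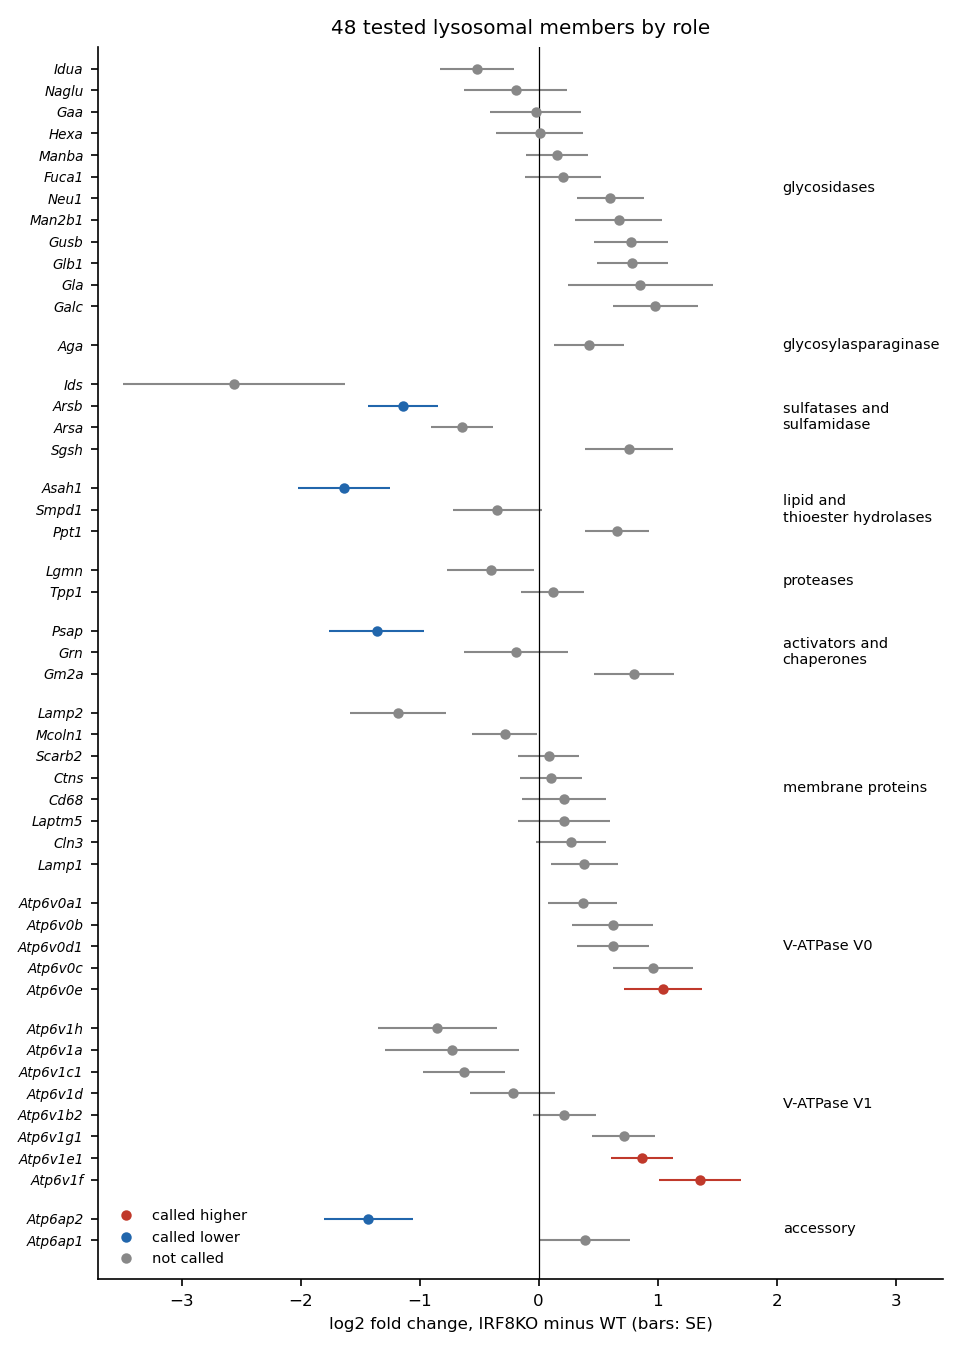
Log2 fold change (IRF8KO minus WT, horizontal axis) of each of the 48 tested members, grouped by role, with bars for the SE. The 3 members called higher (red) are all V-ATPase subunits, the 4 called lower (blue) sit in 4 different roles, and the 41 grey points did not pass the test.

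Glycosidases, which trim sugars from glycoproteins, glycolipids and glycosaminoglycans, were not called by edgeR under the settings that gave the 7 calls. None of the 12 described passed the test, 3 had an unadjusted p under 0.05 (Galc, Glb1 and Gusb), and DESeq2 and limma-voom each called 1, Galc. Galc, the enzyme that removes galactose from the myelin lipid galactosylceramide, had 15.0, 10.6 and 9.51 CPM in WT and 21.5, 22.3 and 25.3 CPM in IRF8KO. All 3 IRF8KO values lay above the WT values, with a log2 fold change of 0.98 (SE 0.35, adjusted p = 0.073 by edgeR). With the GC content offset Galc was 1.87 with an adjusted p of 0.00573, and 5 of the 12 glycosidases were called, 4 higher and 1 lower, where 25.7% of all genes were called. Glb1 was also called higher with at least 10 counts in every library, and Idua lower with library size alone. Glb1, the beta-galactosidase, had 114, 112.9 and 186.4 CPM in WT and 276.1, 208.7 and 229.1 CPM in IRF8KO (log2 fold change 0.79, SE 0.30, adjusted p = 0.0854 by edgeR). Gusb, the beta-glucuronidase, had 433.7 ± 112.5 and 741.5 ± 135.3 CPM (SD, n = 3), and Neu1, the sialidase, had 125.4 ± 25.2 and 190.4 ± 26.1 CPM. In these 2 genes, too, the genotypes did not overlap, and neither passed the test. Hexa had 1604, 1742 and 3197 CPM in WT and 2614, 1767 and 2208 CPM in IRF8KO. Its values overlapped, with a log2 fold change of 0.01 (SE 0.37, adjusted p = 0.989 by edgeR) whose sign turned under several alternatives. Exons shared with Tmem202 make up 12.8% of the exonic length of Hexa, and counting ignored strand. Among the rest, log2 fold changes ran from −0.52 for Idua, which removes iduronic acid, to 0.85 for Gla, the alpha-galactosidase, a gene with only 8 to 76 counts per library. Man2b1, the alpha-mannosidase, had 2193 ± 864 CPM in WT against 3499 ± 502 CPM in IRF8KO (SD, n = 3; log2 fold change 0.67, SE 0.37, adjusted p = 0.217 by edgeR). Aga, which splits the bond between a sugar and asparagine, had 40.4 ± 11.3 and 54.3 ± 4.23 CPM (SD, n = 3). It missed the threshold with no offset and was called higher with the GC content offset (log2 fold change 1.00, adjusted p = 0.0169 by edgeR) and with the block and that offset.

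Sulfatases and the sulfamidase remove sulfate from sugars and lipids, and 3 of the 4 had IRF8KO values below all WT values, as did 17.9% of all tested genes. Arsb, which acts on N-acetylgalactosamine sulfate in dermatan and chondroitin sulfate, fell. It had 85.8, 93.1 and 84.6 CPM in WT and 31.5, 54.1 and 34.1 CPM in IRF8KO, the narrowest WT spread of the 4. Its log2 fold change was −1.14 (SE 0.29, adjusted p = 0.0186 by edgeR), a 2.2-fold lower level. Arsb lies at chr13:93771630-93943016, where 39.9% of its exonic length is shared with the genes Gm26527 and Gm47210, so its count is uncertain. The call was lost without WT replicate 2, IRF8KO replicate 1 or IRF8KO replicate 3 (adjusted p of 0.0707, 0.108 and 0.119 by edgeR). Ids, the iduronate sulfatase, had 24.9, 28.3 and 12.7 CPM in WT and 1.12, 9.60 and 0.109 CPM in IRF8KO, counts of 128, 400, 92, 7, 107 and 1. Its log2 fold change of −2.56 was the lowest of the members but had an SE of 0.93 (adjusted p = 0.0747 by edgeR), and IRF8KO replicate 2 held 107 of the group's 115 counts. Ids was called lower by limma-voom (log2 fold change −3.95, adjusted p = 0.0213), with the replicate block (−3.67), with the block and the GC offset (−2.78), with no expression filter (−2.51) and without IRF8KO replicate 2 (−5.25). Arsa, the arylsulfatase that acts on sulfatide, a myelin lipid, had 93.2, 106.5 and 124.6 CPM in WT and 70.8, 64.7 and 71.9 CPM in IRF8KO (log2 fold change −0.65, SE 0.26, adjusted p = 0.103 by edgeR). Arsa was called lower by edgeR with library size alone, the GC content offset, the block and that offset, and the length and GC content offset (adjusted p of 0.00488, 0.018, 0.0358 and 0.0185). Sgsh, the heparan N-sulfatase, had 40.7 ± 20.4 CPM in WT and 68.8 ± 17.5 CPM for IRF8KO (SD, n = 3) and was called only without WT replicate 3 and with the length and GC content offset. Overlapping genes cover 18.8% of the exonic length of Arsa and 21.6% of that of Sgsh.

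Of the lipid and thioester hydrolases, Asah1, the acid ceramidase, fell. Its levels were 280.7, 278.5 and 158.7 CPM in WT and 47.5, 120.8 and 62.3 CPM in IRF8KO. WT replicate 3 and IRF8KO replicate 2 came closest to each other, and the genotypes did not overlap. The log2 fold change was −1.64 (SE 0.39, adjusted p = 0.0119 by edgeR), 3.11-fold lower and the smallest p among the members. Without IRF8KO replicate 1 the adjusted p was 0.072 and without IRF8KO replicate 3 it was 0.099, with log2 fold changes of −1.37 and −1.49. With the GC content offset the log2 fold change of Asah1 shrank to −1.05 and the call held (adjusted p = 0.00537 by edgeR). Smpd1, the acid sphingomyelinase, which makes the ceramide that Asah1 cleaves, had 163.6, 175.2 and 383 CPM in WT and 252.8, 145.5 and 168.5 CPM in IRF8KO and overlapped (log2 fold change −0.35, SE 0.37), though it was called lower with library size alone. Without WT replicate 3 the log2 fold change of Smpd1 was 0.18 (adjusted p = 0.56 by edgeR). Ppt1, which removes fatty acids from proteins, had 271.6, 285.1 and 249.7 CPM in WT and 437.9, 369.4 and 464.9 CPM in IRF8KO. All IRF8KO values of Ppt1 were higher, yet its log2 fold change of 0.66 (SE 0.27) had an adjusted p of 0.11 by edgeR. DESeq2 called both Asah1 and Ppt1, and edgeR called Ppt1 higher without WT replicate 3 and with each GC content offset.

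Neither protease passed the test. Lgmn had 5688, 4745 and 8015 CPM in WT and 5654, 3779 and 4523 CPM in IRF8KO, with a log2 fold change of −0.40 (SE 0.37, adjusted p = 0.476 by edgeR). Tpp1, a tripeptidyl peptidase, was the steadier, with 270.3 ± 33.3 and 293.9 ± 9.45 CPM (SD, n = 3; log2 fold change 0.12, SE 0.27). Both overlapped between genotypes, neither had an unadjusted p under 0.05, and DESeq2 and limma-voom called neither. Lgmn was called lower by edgeR with library size alone (−0.90, adjusted p = 0.00441) and with the length and GC content offset (−0.75, adjusted p = 0.00633).

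Psap, whose product is cut into the saposins that present sphingolipids to their hydrolases, fell. It had 4853, 5508 and 10030 CPM in WT and 3303, 2165 and 2473 CPM in IRF8KO. Every IRF8KO library lay below every WT library, the WT spread being set by replicate 3. The log2 fold change was −1.36 (SE 0.40, adjusted p = 0.0326 by edgeR), 2.57-fold lower, and −0.94 with an adjusted p of 0.00627 when WT replicate 3 was left out. Without WT replicate 2, IRF8KO replicate 1, 2 or 3 the adjusted p was 0.0608, 0.0757, 0.119 and 0.177 by edgeR, and with the replicate block the call was lost as well. Within a library, where scaling cancels, the per-kb ratio of Psap to Grn was 1.41, 1.32 and 1.10 in WT and 0.527, 0.536 and 0.566 in IRF8KO. That ratio, chosen after the values were seen, was alike among the IRF8KO libraries and did not overlap with WT. Grn on its own had 4348, 5277 and 11590 CPM in WT and 7940, 5109 and 5535 CPM in IRF8KO, which overlapped (log2 fold change −0.19, SE 0.44, adjusted p = 0.794 by edgeR). Without WT replicate 3 the log2 fold change of Grn was 0.39 (adjusted p = 0.197 by edgeR). Gm2a, the activator with which Hexa breaks down the ganglioside GM2, had 353.5, 311.2 and 614.5 CPM in WT and 847.6, 625.2 and 756.9 CPM in IRF8KO. Its log2 fold change of 0.80 (SE 0.33) had an adjusted p of 0.114 by edgeR, and it was called higher without WT replicate 3, with the block and the GC offset, and with the length and GC content offset. Psap lies at chr10:60277627-60302597 and Asah1 at chr8:41340197-41374773.

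**Figure D2:**
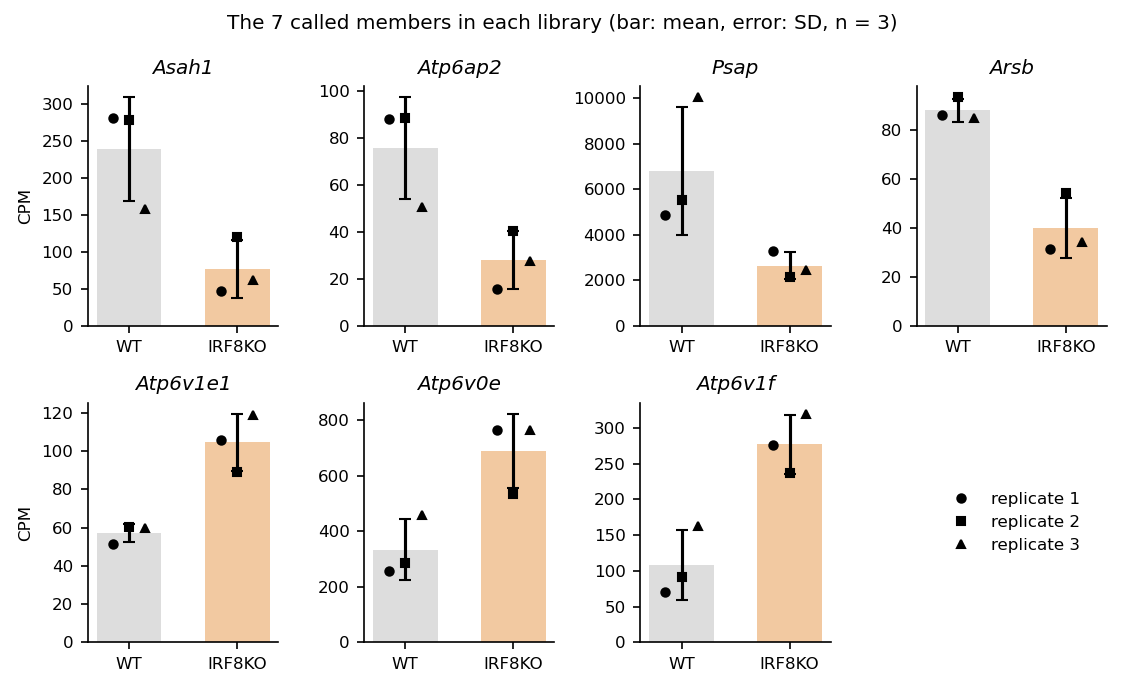
CPM (vertical axis, from 0) of the 7 called members in each library, with bars for the mean of each genotype, error bars for the SD (n = 3) and a marker shape for each replicate number. In every panel the 3 IRF8KO points lie to one side of the 3 WT points, and WT replicate 3 (triangle) is the WT point nearest to IRF8KO for Asah1, Atp6ap2, Arsb, Atp6v0e and Atp6v1f.

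Among the 8 membrane proteins none was called by edgeR under the settings that gave the 7 calls. Lamp2 had an unadjusted p under 0.05, and it was called by DESeq2, while limma-voom called none. It was also called lower by edgeR with no expression filter, with at least 10 counts in every library, with the replicate block and without IRF8KO replicate 2 (adjusted p of 0.0051, 0.039, 0.0271 and 0.0318). Lamp1 and Lamp2, the major glycoproteins that line the lysosomal membrane, differed in sign. Lamp1 had 735.2, 650 and 823.4 CPM in WT and 1006, 942.2 and 935.5 CPM in IRF8KO, with no overlap (log2 fold change 0.39, SE 0.29, adjusted p = 0.373 by edgeR). Lamp2, which is also needed for chaperone-mediated autophagy, had 209.1, 211.1 and 84.5 CPM in WT and 50.9, 109.1 and 62.0 CPM in IRF8KO. WT replicate 3 fell within the IRF8KO range, and the log2 fold change of −1.18 (SE 0.40) had an adjusted p of 0.0579 by edgeR. Without WT replicate 3 it was −1.44 with an adjusted p of 0.00741 by edgeR, and with an offset for GC content, which is 38.7% in its longest transcript, it was −0.31 with an adjusted p of 0.227. Lamp1 exceeded Lamp2 per kb by a factor of 12.6, 11 and 34.8 in WT and 70.6, 30.8 and 53.8 in IRF8KO, so that WT replicate 3 lay above IRF8KO replicate 2. The most abundant membrane protein gene, Laptm5, had 6859, 7582 and 12400 CPM in WT and 11910, 8998 and 10260 CPM in IRF8KO (log2 fold change 0.22, SE 0.39, adjusted p = 0.734 by edgeR). Cd68 had 1812 ± 638 and 2099 ± 421 CPM (SD, n = 3), the latter in IRF8KO. With the length and GC content offset Cd68 turned negative and was called lower (−0.64, adjusted p = 0.00969 by edgeR). Scarb2, the receptor that carries beta-glucocerebrosidase to the lysosome, had 158.5 ± 13.2 and 167.9 ± 13 CPM, the calcium channel gene Mcoln1 205.6 ± 28.0 and 168.7 ± 30.3 CPM, Cln3 214.8 ± 55.7 and 259.3 ± 35.4 CPM, and the cystine transporter gene Ctns 128.2 ± 11.4 and 138.1 ± 16.2 CPM (SD, n = 3 each). Their log2 fold changes lay between −0.29 and 0.27. With library size alone Lamp1, Laptm5, Cd68, Scarb2, Cln3 and Ctns turned negative, so their directions depend on the scaling, and Mcoln1 was called lower (−0.80, adjusted p = 0.00871 by edgeR).

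All 5 measured members of the V0 part had positive log2 fold changes, from 0.37 to 1.04, and 1 of them rose. Atp6v0a2 and Tcirg1, V0 genes outside the member list, are described below. Atp6v0e, a small membrane subunit, had 258.2, 285.8 and 459.5 CPM in WT and 766.1, 535.1 and 766.7 CPM in IRF8KO. The genotypes did not overlap, and the log2 fold change was 1.04 (SE 0.33, adjusted p = 0.0437 by edgeR), 2.06-fold higher. It was 1.37 with an adjusted p of 0.000857 without WT replicate 3, and the call was lost without WT replicate 1 or 2 or IRF8KO replicate 1 or 3 (adjusted p of 0.162, 0.176, 0.148 and 0.179 by edgeR). RLE scaling ended it too, at an adjusted p of 0.0554. Atp6v0c, which encodes the proton-carrying ring, had 15.0, 20.8 and 12.3 CPM in WT and 31.3, 25.9 and 36.7 CPM in IRF8KO, just outside the threshold (log2 fold change 0.96, SE 0.34, adjusted p = 0.0652 by edgeR). DESeq2 called it, as did edgeR with Apoe left out. Its pseudogenes Atp6v0c-ps1 and Atp6v0c-ps2 match 15.2% of its longest transcript, so its count is uncertain. Atp6v0b, another ring subunit and the most abundant V0 gene, had 279.1, 333.6 and 549.5 CPM per kb in WT and 679.5, 491 and 619.4 CPM per kb in IRF8KO. Only WT replicate 3 lay within the IRF8KO range (log2 fold change 0.62, SE 0.34, adjusted p = 0.222 by edgeR). Atp6v0d1, the central stalk subunit, had 93.0, 99.7 and 158.8 CPM in WT and 217.7, 150.9 and 173.3 CPM in IRF8KO (log2 fold change 0.62, SE 0.30, adjusted p = 0.171 by edgeR). Atp6v0a1, a form of the a subunit through which protons pass, had 206.2 ± 51.4 and 266.4 ± 45.4 CPM (SD, n = 3) and turned to −0.10 on the log2 scale with library size alone, while the other 4 stayed positive.

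The 8 member genes of the V1 part were divided, 4 with positive and 4 with negative log2 fold changes, and 2 rose. Atp6v1f, a subunit of the central stalk, had 71.0, 90.8 and 163.4 CPM in WT and 275.4, 236.7 and 319.4 CPM in IRF8KO. Per kb, Atp6v1f was the highest V1 gene in each IRF8KO library and by the WT mean, but below Atp6v1g1 in WT replicates 1 and 2. Its log2 fold change was 1.35 (SE 0.34, adjusted p = 0.0168 by edgeR), 2.56-fold higher and the highest of the members. Without WT replicate 1 or 2 or IRF8KO replicate 1 or 3 the adjusted p was 0.0685, 0.0801, 0.0641 and 0.1 by edgeR, and without WT replicate 3 the log2 fold change was 1.81. With the offset for length and GC content it was 0.41 with an adjusted p of 0.134, and Atp6v1f was no longer called. A sequence named AC169506.3 matches 25.1% of its longest transcript. Atp6v1e1, part of the outer stalks that hold the pump still, had 51.6, 60.2 and 59.8 CPM in WT and 105.5, 89.0 and 118.8 CPM in IRF8KO. Both groups were narrow and did not overlap (log2 fold change 0.87, SE 0.26, adjusted p = 0.0383 by edgeR; 1.82-fold). The 4 leave-outs that ended the call of Atp6v1f ended this one too, with adjusted p from 0.117 to 0.161, as did library size alone, no expression filter and the replicate block. Atp6v1g1, the partner of Atp6v1e1 in the outer stalk, had 92.4, 101.6 and 117.6 CPM in WT and 189.7, 149.8 and 172.7 CPM in IRF8KO (log2 fold change 0.72, SE 0.26, adjusted p = 0.0779 by edgeR). Atp6v1g1 was called by DESeq2 and by edgeR with at least 10 counts in every library, with the GC content offset, with the block and that offset, and without WT replicate 3. Near-identical copies match 31.5% of its transcript.

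The ATP-splitting head is built from the products of Atp6v1a and Atp6v1b2. Atp6v1b2 had 148.3, 176.4 and 185.4 CPM in WT and 185.1, 180.6 and 226.1 CPM in IRF8KO (log2 fold change 0.21, SE 0.27). Atp6v1a, which carries the catalytic site, had 24.3, 31.7 and 4.83 CPM in WT and 12, 15.8 and 9.0 CPM in IRF8KO (log2 fold change −0.73, SE 0.56, adjusted p = 0.396 by edgeR). WT replicate 3 was the lowest of all 6 libraries for Atp6v1a. Though the assembled head holds equal numbers of both proteins, the per-kb ratio of Atp6v1a to Atp6v1b2 transcripts was 0.144, 0.158 and 0.0228 in WT and 0.0571, 0.0767 and 0.0349 in IRF8KO. Atp6v1c1, Atp6v1d and Atp6v1h, which regulate or link the head, had log2 fold changes of −0.63 (SE 0.34), −0.22 (SE 0.36) and −0.85 (SE 0.50), and none was called. In each of these 3 genes, too, WT replicate 3 was the lowest WT library. The GC content of the longest transcripts of Atp6v1a, Atp6v1c1, Atp6v1d and Atp6v1h was 37.6% to 44.6%, that of the other V1 genes 48.2% to 53.3%. With an offset for GC content, Atp6v1d and Atp6v1h turned positive.

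**Figure D3:**
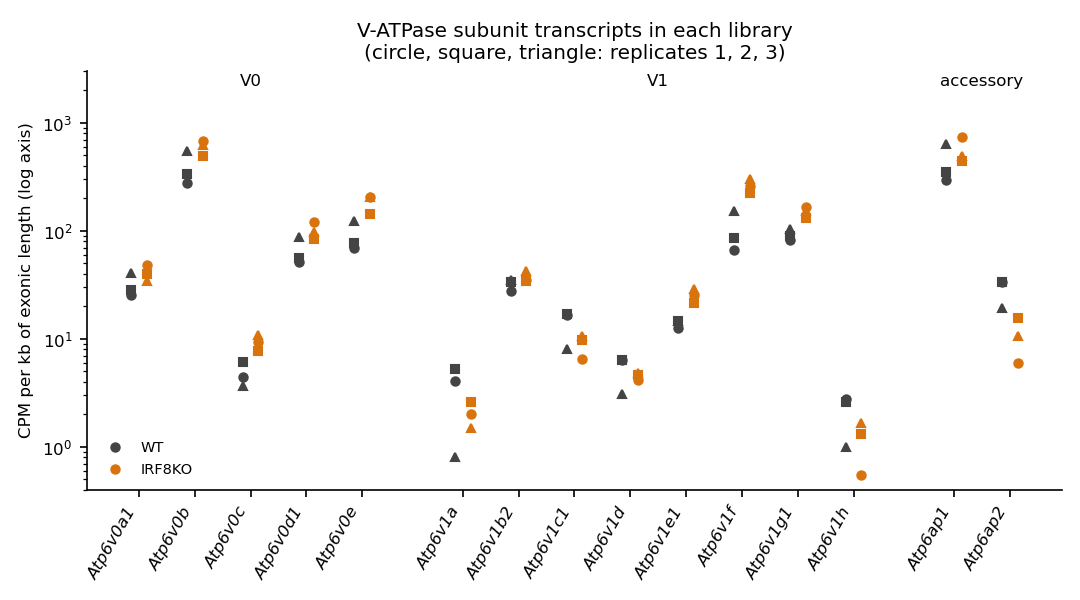
CPM per kb of exonic length (vertical log axis) of the 15 measured V-ATPase and accessory members in each library, with WT in grey, IRF8KO in orange and a marker shape for each replicate number. The genes spanned from Atp6v1h, at 0.544 in the lowest library, to Atp6ap1, at 745.6 in the highest, and none of the V0 members shown was lower on average in IRF8KO.

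The 2 accessory proteins differed in sign. Atp6ap2, also known as the prorenin receptor, is needed to assemble the pump and fell. It had 87.9, 88.4 and 50.7 CPM in WT and 15.7, 40.5 and 27.6 CPM in IRF8KO, with IRF8KO replicate 2 closest to WT. The log2 fold change was −1.43 (SE 0.37, adjusted p = 0.0198 by edgeR), 2.70-fold lower. Its transcript has a GC content of 40.5%, and with an offset for GC content the value was −0.69 with an adjusted p of 0.056. Without WT replicate 1 or 2 or IRF8KO replicate 1 or 3 the adjusted p was 0.0541, 0.0688, 0.0946 and 0.108 by edgeR. The gene Gm36448 matches 18.8% of its longest transcript. Atp6ap1, an accessory subunit, had 886.8, 1067 and 1924 CPM in WT and 2256, 1327 and 1502 CPM in IRF8KO and overlapped (log2 fold change 0.39, SE 0.38, adjusted p = 0.506 by edgeR). The called genes of the pump lie at chr17:26663231-26699647 (Atp6v0e), chr6:120794305-120822793 (Atp6v1e1), chr6:29467718-29470512 (Atp6v1f) and chrX:12587801-12617049 (Atp6ap2), in build mm10.

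WT replicate 3 differed from the other WT libraries along the GC content of the transcripts. Over the 48 tested members, its log2 CPM minus the mean of WT replicates 1 and 2 ran from −2.47 for Atp6v1a to 1.59 for Naglu, and its Spearman correlation with GC content was 0.823, against 0.615 over 11034 genes. These points share the same 3 libraries, and genes are not independent replicates. The log2 fold change between genotypes followed GC content less, with a Spearman correlation of 0.115 over the members and 0.285 over all genes. Median GC content was 47.1% for the 4 called lower and 50.3% for the 3 called higher. An offset for GC content fitted in each library gave 16 called members, 11 higher and 5 lower, where 25.7% of all genes were called. Of the 7, only Atp6ap2 was then not called.

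**Figure D4:**
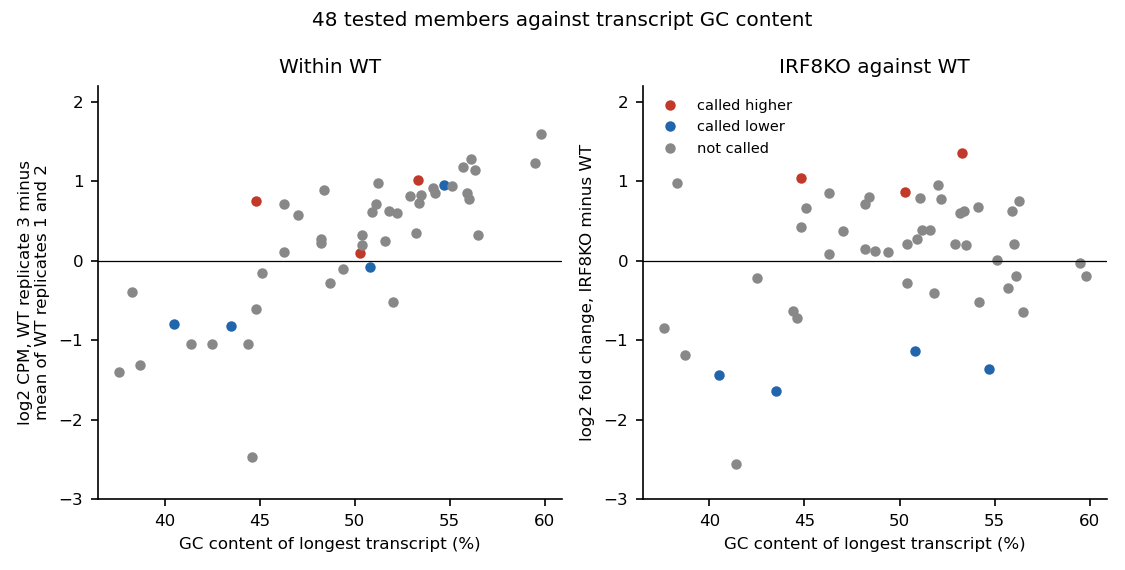
Both panels have the GC content of each member's longest transcript (percent) on the horizontal axis and 1 point for each of the 48 tested members. On the left, the difference of WT replicate 3 from the mean of WT replicates 1 and 2 climbs with GC content from −2.47 to 1.59; on the right, the log2 fold change between genotypes shows a weaker relation, with the called members at 40.5% to 54.7%.

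Leaving out WT replicate 3 gave 25 called members, 18 higher and 7 lower, where 33.5% of all genes were called. All 7 were among them, with adjusted p from 0.000248 to 0.0147 by edgeR. The other calls higher were 5 glycosidases (Glb1, Gusb, Neu1, Man2b1 and Fuca1), Sgsh, Ppt1, Gm2a, Lamp1, Cln3, Atp6v0a1, Atp6v0b, Atp6v0d1, Atp6v1g1 and Atp6ap1, and those lower were Lamp2, Atp6v1a and Atp6v1c1. With all 6 libraries and the GC offset, the log2 fold changes of these last 3 were −0.31, −0.048 and −0.018 (adjusted p of 0.227, 0.952 and 0.964 by edgeR). Without IRF8KO replicate 1 or without IRF8KO replicate 3, edgeR called no member, 9 and 8 having an unadjusted p under 0.05, while 9.64% and 7.95% of all genes were called. Without WT replicate 1 it called 3 (11.4% of all genes) and without WT replicate 2 it called 1, Asah1 (10.4% of all genes). DESeq2 and limma-voom, run on all 6 libraries, called 12 and 9 of the 48 members and 24.4% and 20.7% of all genes.

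**Figure D5:**
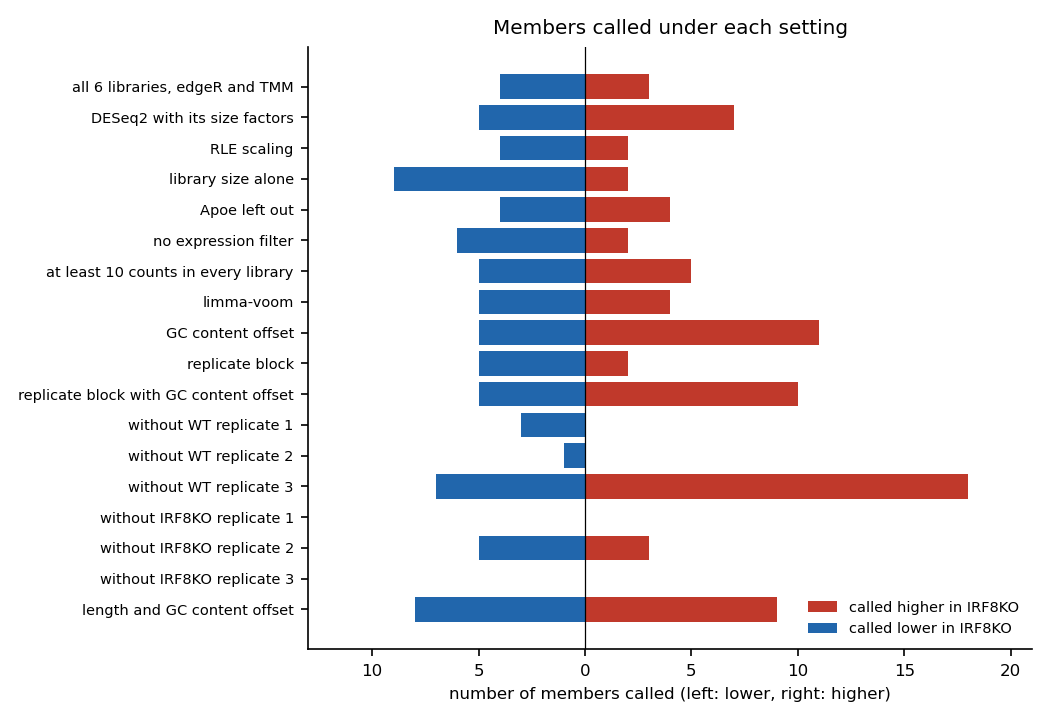
Number of members called (horizontal axis, lower to the left and higher to the right of 0) under each setting of the analysis. The counts run from 0 without IRF8KO replicate 1 or 3 to 25 without WT replicate 3, against 7 with all 6 libraries.

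Other lysosomal genes, from a list of 89 drawn up by function with earlier results of these data known, served for comparison. Of 81 tested, 8 rose and 9 fell (21%, near the 19.1% of all tested genes), with a median log2 fold change of −0.13. Hgsnat, which acetylates heparan sulfate so that it can be degraded, had 130.7, 87.2 and 176.2 CPM in WT and 497.4, 354.6 and 440.5 CPM in IRF8KO (log2 fold change 1.71, SE 0.33, adjusted p = 0.00389 by edgeR). Cd63, a tetraspanin of late endosomes, rose 6.25-fold, from 356.9 ± 96.6 to 2231 ± 459 CPM (SD, n = 3), and Tpcn1, a cation channel, 2.65-fold. Naaa, which hydrolyses N-acylethanolamines and is a relative of Asah1, fell from 40.7, 27.8 and 17.5 CPM to 0.963, 0.718 and 0.759 CPM, 35.1-fold. Rptor, the scaffold by which mTORC1 is recruited to the lysosome, fell 3.24-fold. The adjusted p of Cd63, Tpcn1, Naaa and Rptor was 0.000385, 0.0041, 5.15e-05 and 0.00417 by edgeR.

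The a subunit of the pump comes in several forms. In the edgeR fit that gave the 7 calls, one of them, no member of the 49, had a log2 fold change larger in size than any member's. Atp6v0a2 fell from 264.6, 223 and 210.6 CPM in WT to 32.3, 18 and 14.8 CPM in IRF8KO. The ranges lay far apart, with a log2 fold change of −3.43 (SE 0.36, adjusted p = 6.96e-05 by edgeR). The calls of Atp6v0a2 and of the other 5 genes of this list named by smallest p were kept with each library left out. The member Atp6v0a1 was not called, and Tcirg1, the a3 form, had 642.4 ± 181 and 426.9 ± 89.1 CPM (SD, n = 3; adjusted p = 0.213 by edgeR). Per kb, the ratio of Atp6v0a2 to Atp6v0a1 was 1.54, 1.16 and 0.777 in WT and 0.1, 0.0671 and 0.0644 in IRF8KO. This ratio does not depend on scaling, and it was computed after the values were seen.

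Of the transcription factors that bind CACGTG elements in lysosomal genes, Tfeb had 121 ± 61.8 and 71.0 ± 19.0 CPM, Tfe3 277 ± 68.8 and 188.9 ± 19.6 CPM and Mitf 3.08 ± 1.54 and 1.94 ± 0.724 CPM in WT and IRF8KO (SD, n = 3). None of the 3 was called by edgeR (adjusted p = 0.164, 0.199 and 0.557). Tfeb and Tfe3 were each called lower with library size alone, with the GC content offset, with the replicate block and that offset, and with the length and GC content offset. Tfec, a relative made in macrophages, had 0 counts in WT and 69 in IRF8KO, at least 22.9-fold higher against a floor of 3 counts over the group, with an adjusted p of 0.00726 by edgeR.

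Marker genes of other cells differed between the libraries. Of 12 genes of border-associated macrophages, macrophages of the meninges and vessels, 8 were tested and all 8 rose, their summed level being 610 to 835 CPM in WT and 3810 to 4990 CPM in IRF8KO. Lyve1 and Cd209f were at 0 in both genotypes, and Cd163, F13a1 and Clec10a at 0 in WT. Of 12 microglial genes, 5 fell and 1 rose, the sum was 44200 to 73400 CPM in WT and 35800 to 50300 CPM in IRF8KO, and Sall1 was at 0 in IRF8KO. Of 4 tested neuronal genes 3 rose, of 5 astrocyte genes 3 rose and 1 fell, both tested monocyte genes rose, and both tested lymphocyte genes and 1 endothelial gene fell. Summed levels of neuronal genes were 0.283 to 11.6 CPM in WT and 28.3 to 49.5 CPM in IRF8KO, of astrocyte genes 187 to 220 and 135 to 242 CPM, and of lymphocyte genes 519 to 859 and 29.6 to 40.9 CPM, with Cd3e at 0 throughout. Oligodendrocyte genes, none of them called by edgeR, summed to 128 to 425 and 449 to 630 CPM. Neutrophil genes summed to 326 CPM in IRF8KO replicate 2 and to at most 1.12 CPM in each of the other 5 libraries, and monocyte genes to 62.3 CPM there and at most 7.37 CPM elsewhere. That library was the lowest of its genotype for 31 members, and without it 8 members were called, 3 higher and 5 lower, where 17.6% of all genes were called. Immediate early genes, which cell handling induces, summed to 5130, 9820 and 679 CPM in WT replicates 1, 2 and 3 and to 653 to 854 CPM in IRF8KO. WT replicate 3 thus lay within the IRF8KO range, and 5 of the 7 genes overlapped between genotypes, although 6 passed the test as lower. The part of these in the results on lysosomal genes was not tested.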

How the data were processed

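Polyadenylated RNA of sorted microglia was copied with SMART-Seq v4 and tagged with Nextera XT, per the labels' protocols, which marks neither strand nor molecules. The authors deposited raw read counts per gene in the layout of STAR. The submitters' processing notes name STAR 2.5.2b, Picard 2.17.11, bcl2fastq, Subread and featureCounts, without roles, and build mm10; the annotation release is not given in the sources used here. The count that ignores strand was used. Symbols, positions, exonic length and GC content came from GENCODE M21, which matched 49326 of 49585 genes and all 49 members.

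Counts were tested with edgeR 4.0.16 (R 4.3.3): expression filter with a minimum count of 10, TMM scaling, quasi-likelihood F test on genotype, Benjamini-Hochberg adjustment over 11041 genes and calls under 0.05. The F statistic gave the SE. CPM give counts for each 1e+06 of the library size after TMM scaling. DESeq2 1.42.0 and limma 3.58.1 were alternatives, beside other scalings, filters, GC and length offsets, a replicate block and leaving out each library. Near-identical copies were transcript matches of at least 95% identity over at least 100 bases. The scripts were tested on simulated data.

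Members and lists were chosen with earlier results of these data known. The text names, by rule, called members, the most abundant of each role per kb, the smallest p of each role, the Lamp and Atp6v0d pairs and, of other lysosomal genes, the 3 smallest p in each direction and 4 transcription factors (1 further gene of the rule is not reported here); the remaining members are given more briefly, and other genes named were chosen after their values were seen. Each brain gave 1 library, so p-values measure the spread between animals and preparation. Floors cover counting error only.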

Additional observations from a re-analysis of the deposited data

How the results depend on the processing

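Under 17 alternatives, the 998 gene values kept their direction and side of the threshold in 841 cases. With the sign kept, 33 calls were lost and 80 gained. Another 44 values changed sign, none of a called member, and among these Hexa and Cd68 gained a call with the length and GC offset. The causes were not tested. The count of called members was 12 (7 higher) with DESeq2, 11 (9 lower) with library size alone, 16 (11 higher) with the GC content offset, 15 (10 higher) with the replicate block plus that offset and 17 (9 higher, 8 lower) with an offset for length and GC content chosen after the data were seen, where 24.4%, 23.2%, 25.7%, 22.7% and 23.9% of all genes were called; 10 of 46 were called (5 higher, 5 lower) with at least 10 counts in every library, where 23.7% of all genes were called. The replicate block alone gave 7 of 48 (21.3% of all genes), 5 of them shared: it ended the calls of Psap and Atp6v1e1 and added Ids and Lamp2. Deviations of log2 CPM from the group mean correlated at −0.26, 0.328 and 0.114 between same-numbered libraries. For replicate 2 only, this was above the values with other numbers (−0.251 to −0.085). With so few libraries these values cannot tell whether the numbers pair them. Leaving out 1 library gave 0 to 25 called, 0 to 18 higher and 0 to 7 lower. For other lysosomal genes, 17 of 81 were called where 19.1% of all genes were. These became 31 with library size alone and 26 with the length and GC offset, where 23.2% and 23.9% of all genes were called. With 1 library left out they ran from 9 to 34, and the share of all genes from 7.95% to 33.5%. With library size alone, the log2 fold change became −0.45 for Hexa, −0.35 for Manba, −0.26 for Fuca1, −0.13 for Aga, −0.40 for Tpp1, −0.11 for Lamp1, −0.25 for Laptm5, −0.26 for Cd68, −0.43 for Scarb2, −0.20 for Cln3, −0.43 for Ctns, −0.10 for Atp6v0a1, −0.28 for Atp6v1b2 and −0.076 for Atp6ap1. With no expression filter, Hexa was −0.051. With Apoe left out, Gaa was 0.033, and with limma-voom 0.076. With the replicate block, Gaa was 0.08 and Naglu 0.002. With the GC offset, Hexa was −0.088, Atp6v1d 0.56, Atp6v1h 0.12 and Mitf 0.017; with the block added, Hexa was −0.084, Atp6v1a 0.13, Atp6v1d 0.54 and Mitf 0.014. With the length and GC offset, Hexa (−0.47) and Cd68 (−0.64) were called lower, Gaa was 0.06, Atp6v1a 0.04, Atp6v1c1 0.087, Atp6v1d 0.65, Atp6v1h 0.12 and Mitf 0.11. Leaving out 1 library took Hexa from −0.18 to 0.42, Gaa from −0.27 to 0.54, Naglu from −0.505 to 0.57, Smpd1 from −0.61 to 0.18 and Grn from −0.46 to 0.39, the upper ends of the last 4 without WT replicate 3. Low counts limit Gla, Ids, Mitf and Tfec, among others.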
